A study of Mus musculus with 194 samples.

Results

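The Fos family is the set of 4 genes Fos, Fosb, Fosl1 and Fosl2, taken by their symbols from a count table of 19363 genes. The table holds 3′-RNA-seq counts, which tag the end of each transcript, from male C57BL/6OLAHSD mice aged 6 to 7 weeks that carried no engineered allele and received cocaine at 20 mg/kg by intraperitoneal injection after 3 days of saline habituation. Acute mice received a single dose, repeated mice (labelled as chronic) 5 daily doses, and challenge mice the same 5 daily doses and then a further dose after 21 days of abstinence. Tissue was dissected from slices 1, 2 or 4 hr after the last dose, from the dorsal striatum (DS), nucleus accumbens (NAc), limbic cortex (LCtx), amygdala (Amy) and lateral hypothalamus (LH). The 0 hr mice of each experience came untreated from the home cage: acute 0 hr mice had never received cocaine, repeated 0 hr mice were taken 24 hr after dose 4, and challenge 0 hr mice were abstinent after their daily doses. No saline-injected mice at matched times were analysed here, so that the effects of handling and of cocaine cannot be told apart. The libraries came from 48 mice, which made 166 samples of a mouse and a structure.

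Fos proteins are transcription factors of the bZIP type, which bind DNA only as pairs, most often with a Jun protein, and the pair is known as AP-1. Fos is the standard immediate-early marker of neuronal activity, and its mRNA and protein are short-lived. Fosb also gives a spliced form, ΔFosB, whose protein is stable and accumulates in the striatum on repeated drug exposure. Fosl1 and Fosl2 encode Fra-1 and Fra-2, relatives that lack the strong activation domain of Fos. Counts at the 3′ end of Fosb do not separate full-length Fosb from ΔFosB.

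In GENCODE M21 on GRCm38, Fos lies at chr12:85473890-85477273 on the plus strand, Fosb at chr7:19302696-19310051 on the minus strand, Fosl1 at chr19:5447547-5455946 on the plus strand and Fosl2 at chr5:32135801-32157842 on the plus strand. Fosl1 overlaps Ccdc85b on the opposite strand. As strand use in counting is not stated, reads of these neighbours cannot be told apart. The other members overlapped no annotated gene. The 3′ untranslated region, where the counted reads fall, was 815 bases long in Fos, 2145 in Fosb, 638 in Fosl1 and 4653 in Fosl2. The letters ATTTA, the core of the elements that mark short-lived mRNAs, occurred 4 times in that of Fos, once in that of Fosb and of Fosl1, and 8 times in that of Fosl2. The 6 coding transcripts of Fosb ended at 4 different positions over 2101 bases.

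The promoters of the members that the results turn on are shown because the timing of these genes is what is described, and RefSeq windows around the start, for GRCm38.p6, matched 3 of the 4 members. Capitals mark TGACG, the core of the CRE to which CREB binds, and TATAAA, the TATA box, both searched on either strand.
Fos, chr12:85473640-85473939, plus strand: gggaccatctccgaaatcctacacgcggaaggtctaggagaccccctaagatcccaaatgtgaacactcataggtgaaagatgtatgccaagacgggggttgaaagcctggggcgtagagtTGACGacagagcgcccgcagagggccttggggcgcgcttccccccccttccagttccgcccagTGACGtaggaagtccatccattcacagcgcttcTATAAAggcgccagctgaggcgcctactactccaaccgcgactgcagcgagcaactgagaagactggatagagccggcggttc
Fosb, chr7:19309996-19310295, minus strand: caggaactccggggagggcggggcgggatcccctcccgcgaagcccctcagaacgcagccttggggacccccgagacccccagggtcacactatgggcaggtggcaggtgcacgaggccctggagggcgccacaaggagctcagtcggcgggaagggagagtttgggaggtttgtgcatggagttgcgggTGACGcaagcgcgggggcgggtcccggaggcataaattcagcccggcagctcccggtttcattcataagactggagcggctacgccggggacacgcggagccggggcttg
Fosl2, chr5:32136222-32136521, plus strand: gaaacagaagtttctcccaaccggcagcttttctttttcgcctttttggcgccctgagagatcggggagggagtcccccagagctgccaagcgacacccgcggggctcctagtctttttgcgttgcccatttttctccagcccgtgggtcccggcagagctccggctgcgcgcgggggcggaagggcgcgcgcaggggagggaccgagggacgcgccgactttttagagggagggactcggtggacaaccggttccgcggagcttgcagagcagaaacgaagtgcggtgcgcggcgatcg
The Fos window held TGACG at -129 and -66 and TATAAA at -33 from the start, and the Fosb window held TGACG at -60. None of the motifs searched was in the Fosl2 window, whose RefSeq start lies inside the GENCODE gene. Of 32851 promoter windows of this length, 20.8% held TGACG, 13.6% TATAAA, 1.79% the whole CRE TGACGTCA, 7.81% the AP-1 site TGANTCA and 1.63% a CArG box, the site of SRF. The last 3 were in none of the windows shown, which are 300 bases long, so that sites farther upstream were not searched.

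Values are CPM, the count scaled to a common library total, and differences are log2 fold changes (log2FC) with their SE from edgeR. Library totals ran from 1193306 to 10367769, with a median of 3296647. Marker genes followed the dissection: the summed level of 8 striatal neuron markers was 10739 to 13626 CPM in DS samples, 6071 to 9569 in NAc samples and 217 to 766 in LCtx samples, and that of Hcrt, Pmch and Gal was 9077 to 15901 in the LH against 0.249 to 3.90 in the DS. All markers of these lists had counts in each structure. A summed level of 6 blood genes stood apart in all 8 LCtx libraries after acute cocaine, at 7364 to 12364 CPM against 300.2 to 1007 in the other LCtx libraries, at every time alike. In bulk tissue, fewer cells of a type and less RNA per cell cannot be told apart.

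Sequencing runs differed in the level of the same mice. In the DS, 24 mice had a further library in a run shared by the 3 experiences. In the 8 acute mice, the Fos level of the shared run was 1.53 to 2.68 times that of the run used for the time course, and the Fosb level was 0.596 to 0.840 times. In the 8 repeated mice, the Fosb level was 0.936 to 2.82 times as high in the shared run. Levels are therefore compared between experiences only within a run, and times within each experience. After challenge, however, the NAc, LCtx, Amy and LH libraries came from a pair of runs, which the time groups mix. With run and cohort as terms in the model no call of a member over time was lost. Fosl2 in the NAc passed after challenge in addition (log2 difference 1.02, adjusted p = 0.0209). Fos in the LH after challenge stood at 1.61 in that fit, against a single 0 hr mouse. That mouse was summed over both runs and could not be given a run term, so that its level is not adjusted for run.

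A member was called when a quasi-likelihood F test of its 1, 2 and 4 hr levels against 0 hr, in a model per structure, gave an adjusted p under 0.05 over all genes tested and its largest change exceeded 1.2-fold. Fosl1 was too low for the test in every structure. Of the 45 tests of the other members, 23 were called, and all of these rose: Fos in 12 of 15, Fosb in 7 of 15 and Fosl2 in 4 of 15. Of all genes tested, the percentage called after acute, repeated and challenge cocaine was 2.62%, 0.48% and 0.673% in the DS and 0.185%, 0.0463% and 0.0925% in the NAc. It was 0.3%, 0.0462% and 0.0924% in the LCtx, 0.0853%, 0.0233% and 0.109% in the Amy, and 0.0529%, 0.0302% and 0.00755% in the LH. Fos was called in all 5 structures, Fosb in the DS, NAc and Amy, and Fosl2 in the DS and NAc. DESeq2 called Fos in 6 time courses, which were the 3 of the DS, the NAc after acute and repeated cocaine and the LCtx after challenge, and in none of the Amy or LH. It lost Fos in the LCtx after acute (adjusted p = 0.0666) and repeated cocaine (0.109), in the Amy after acute cocaine (0.357) and challenge (0.0758), and in the LH after acute (0.461) and repeated cocaine (0.202), and it gave no adjusted p for the NAc after challenge.

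Fos had its largest difference from 0 hr at 1 hr in all 15 time courses. In the DS after acute cocaine it read 4.67, 5.18, 11.8 and 19.0 CPM in the 4 mice at 0 hr and 33.5, 35.3, 40.2 and 55.3 CPM at 1 hr. It then read 3.90, 5.97, 6.58 and 7.70 CPM at 2 hr and 2.22, 4.05, 4.13 and 5.23 CPM at 4 hr. The 1 hr mice lay above all others, and the 2 hr mice overlapped the 0 hr mice. The 1 hr log2FC was 2.11 ± 0.36, or 4.31-fold (adjusted p = 1.13e-10). Some markers of other cells moved in this comparison: Gfap, an astrocyte gene, fell (1 of 3 astrocyte markers, log2FC -1.28 at 4 hr, adjusted p = 0.0200), Ttr of the choroid plexus fell (1 of 3, -1.11 at 2 hr, adjusted p = 0.0297) and Flt1 of the endothelium rose (1 of 3, 0.76 at 2 hr, adjusted p = 0.00673). None of 5 cortical neuron markers was called, with a median 1 hr log2FC of -1.13 and a sum of 25.1 to 72.8 CPM at 0 hr and 15.1 to 40.4 CPM at 1 hr. None of the 8 striatal neuron markers was called either (median 0.15), and their sum was 10739 to 12873 and 12242 to 13053 CPM. The 0 hr mouse with the highest Fos, mouse 1, stood apart in its markers, with a choroid plexus sum of 195 CPM against 49.3 to 55.1 in the other 0 hr mice and an astrocyte sum of 242 against 111 to 132. Without this mouse, chosen after its values were seen, Gfap (adjusted p = 0.805) and Ttr (0.309) were no longer called and Flt1 was (0.0240), the share of all genes called was 1.31% in place of 2.62%, and the Fos log2FC was 2.72 (adjusted p = 1.63e-12), over 1.5 times the fold given above.

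After repeated cocaine, DS Fos read 2.48, 5.82, 6.85 and 10.2 CPM at 0 hr and 45.2, 50.6, 56.2 and 62.3 CPM at 1 hr. The 5 mice at 2 hr read 4.15, 6.65, 10.4, 10.7 and 12.9 CPM, and the 4 mice at 4 hr 2.03, 4.74, 7.0 and 9.42 CPM. Again only the 1 hr mice stood clear of the 0 hr mice, with a log2FC of 3.06 ± 0.37 (8.34-fold, adjusted p = 1.31e-11). After challenge, the 3 abstinent mice read 7.20, 9.25 and 28.4 CPM and the 1 hr mice 45.9, 58.8, 60.4 and 112 CPM. The 2 hr mice read 11.7, 12.3, 13 and 21.2 CPM and the 4 hr mice 2.11, 7.72, 12.8 and 18.1 CPM. The highest abstinent mouse was above every mouse at 2 and 4 hr, and the 1 hr log2FC was 2.25 ± 0.34 (4.74-fold, adjusted p = 2.03e-10). Without that abstinent mouse it was 3.09 (adjusted p = 2.5e-12), and without any other mouse it was at least 1.91. The blood sum of these DS libraries was 511 to 608 CPM at 0 hr and 516 to 1073 CPM (median 628) at 1 hr. None of the 4 blood genes tested was called, and their part was not tested.

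In the NAc, Fos rose after acute cocaine and challenge. In acute mice it read 4.58, 6.69, 6.78 and 14.4 CPM at 0 hr and 13, 18.3, 21.2 and 21.2 CPM at 1 hr, the single time course of the 15 in which 0 and 1 hr mice overlapped. The log2FC was 1.16 ± 0.24 (2.23-fold, adjusted p = 7.66e-05). After repeated cocaine the 2 mice at 0 hr read 6.37 and 8.88 CPM and the 2 mice at 1 hr 19.7 and 19.98 CPM, a log2FC of 1.38 ± 0.34 that did not pass the test (adjusted p = 0.156). The challenge groups lay further apart. The 0 hr mice read 7.05 and 8.63 CPM, the 1 hr mice 25.3, 32.5, 37.8 and 40.3 CPM, and the log2FC was 2.16 ± 0.29 (4.47-fold, adjusted p = 2.76e-06). Both 0 hr mice and the 1 hr mice at 37.8 and 40.3 CPM were in the same run, in which the 1 hr mice were thus above the 0 hr mice, whereas the 1 hr mice at 25.3 and 32.5 CPM were in a run with no 0 hr mouse in the test. Choroid plexus markers split in the same way: their sum was 111 and 139 CPM in these last mice against 6.77 to 10.7 in the other mice at 0 and 1 hr, where the median of all NAc libraries was 72.6. The mouse at 32.5 CPM also had a blood sum of 1189 CPM against 291 to 526. Without any 1 mouse the NAc Fos log2FC after challenge was 2.06 to 2.30 and stayed called. At 2 hr after challenge, NAc Fos was still at 17.5, 19.9, 22.7 and 26.0 CPM, above both 0 hr mice. The cortical neuron sum was 268 to 637 CPM (median 437) in these mice against 213 and 309 CPM at 0 hr, and its part in this level was not tested.

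**Figure D1:**
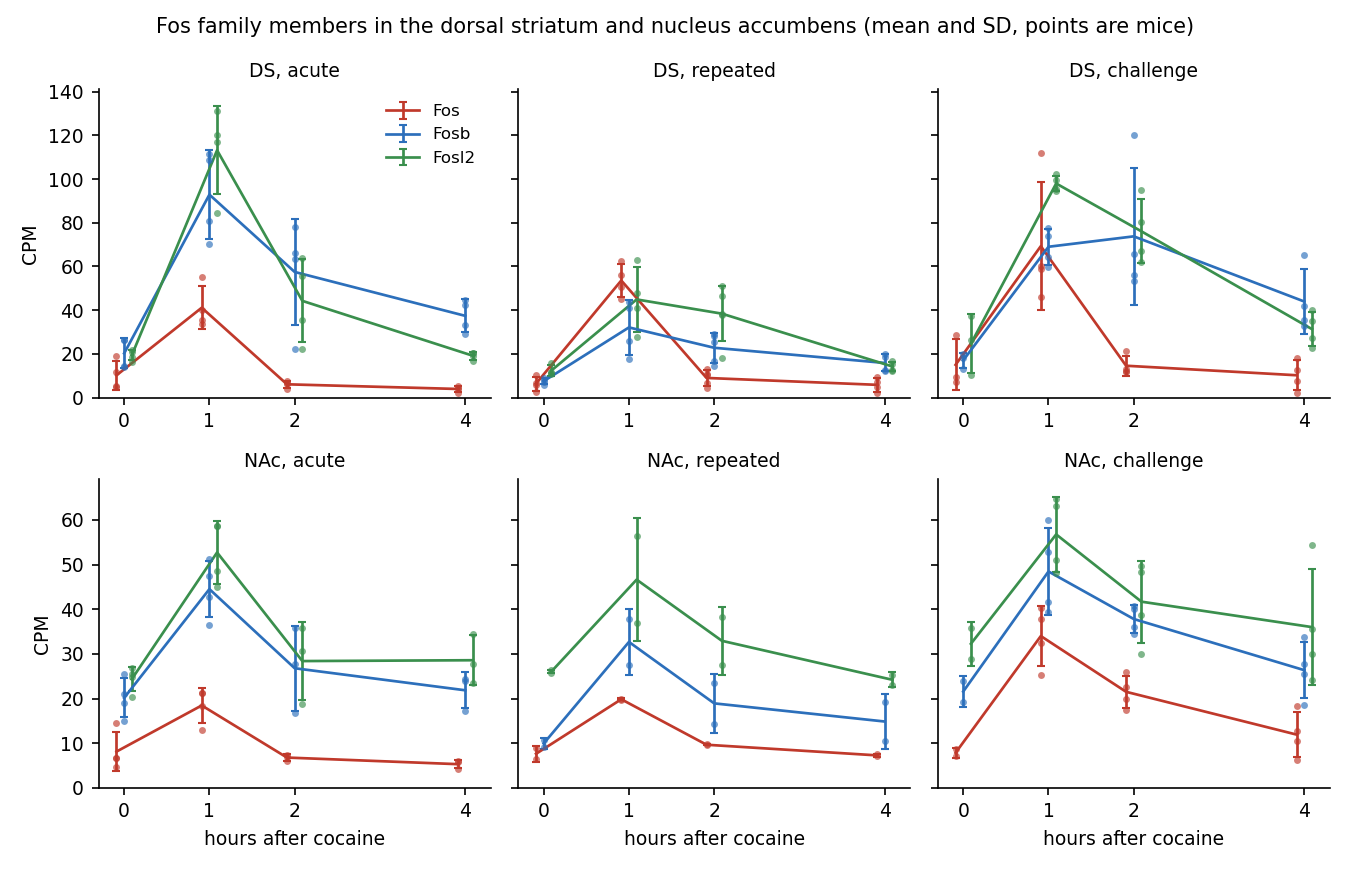
CPM of Fos, Fosb and Fosl2 in each mouse (points) at 0, 1, 2 and 4 hr after cocaine in the DS and NAc, with lines through the group means and SD bars, 1 panel per structure and experience. Fos peaks at 1 hr and overlaps the 0 hr values at 2 hr in the DS, whereas Fosb at 2 hr lies above them after repeated cocaine and challenge, and after acute cocaine in all but 1 mouse.

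Outside the striatum Fos was the member with most calls. In the LCtx after acute cocaine it read 13.2, 14.3 and 29.3 CPM at 0 hr and 49.2 and 64.4 CPM at 1 hr (log2FC 1.53 ± 0.27, adjusted p = 0.00465). The same 8 libraries carry the high blood signal given above. Mouse 2 at 1 hr also stood apart in other markers: its striatal neuron sum was 766 CPM against 217 to 302 in the other mice at 0 and 1 hr, its oligodendrocyte sum 3482 against 1372 to 1740, and its cortical neuron sum 1057 against 1654 to 1917. Of the 8 striatal markers, 3 were called and rose in this comparison, the receptor gene Drd2 (2.3 at 1 hr) and the neuropeptide genes Penk (1.32) and Tac1 (1.28). Their part in the result was not tested, but the call of Fos rests on that mouse. After repeated cocaine, LCtx Fos read 9.15 and 13.5 CPM at 0 hr and 36.8 and 55.4 CPM at 1 hr (log2FC 2.01 ± 0.34, adjusted p = 0.0148). After challenge it read 24.2 and 31.7 CPM at 0 hr and 47.0, 61.3, 71.4 and 82.3 CPM at 1 hr (log2FC 1.27 ± 0.27, adjusted p = 0.000296). Within its runs the challenge values were 24.2 against 71.4 and 82.3 CPM, and 31.7 against 47.0 and 61.3 CPM. No 1 hr value overlapped a 0 hr value in the LCtx. The acute call was lost without 1 hr mouse 2 (log2FC 1.34, adjusted p = 1.00), and the repeated call without 0 hr mouse 1 (0.385), 0 hr mouse 2 (0.101) or 1 hr mouse 2 (0.651).

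In the Amy, acute Fos read 6.97 and 12.3 CPM at 0 hr and 27.4 and 30.8 CPM at 1 hr (log2FC 1.58 ± 0.36, adjusted p = 0.0324). With repeated cocaine it read 4.56 and 6.44 CPM at 0 hr and 16.3 and 24.7 CPM at 1 hr, and the log2FC of 1.89 ± 0.42 did not pass (adjusted p = 0.218). After challenge it read 10.6, 22.5 and 25.2 CPM at 0 hr and 28.9, 39.5, 44.5 and 55.7 CPM at 1 hr (log2FC 1.19 ± 0.24, adjusted p = 0.00206). Within its runs these were 10.6 and 25.2 against 39.5 and 55.7 CPM, and 22.5 against 28.9 and 44.5 CPM. The 1 hr mice were above the 0 hr mice in each experience. In acute Amy mice the striatal neuron sum was 1414 and 1715 CPM at 0 hr and 1764 and 1845 CPM at 1 hr. In repeated 0 hr mice it was 782 and 980 CPM. None of the 8 striatal markers was called in the acute mice (median 1 hr log2FC 0.17), and their part in the Fos values was not tested. Without 1 mouse the acute call was lost in 5 cases, namely without 4 hr mouse 1 (adjusted p = 0.113) or 2 (0.0611), 0 hr mouse 2 (0.137), or 1 hr mouse 1 (0.367) or 2 (0.856).

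In the LH, acute Fos read 7.83 and 9.18 CPM at 0 hr and 27.4 and 36.0 CPM at 1 hr (log2FC 1.89 ± 0.33, adjusted p = 0.0128), and repeated Fos read 4.17 and 5.95 CPM at 0 hr and 22.6 and 26.7 CPM at 1 hr (log2FC 2.22 ± 0.39, adjusted p = 0.0287). The groups were apart in both, but neither call held without single mice, at log2FC of 1.69 to 2.06 and of 2.01 to 2.53. Where a group of 2 mice loses 1, the mouse that is left is taken to vary like the other groups, here and in the NAc, LCtx and Amy. The acute call was lost without 0 hr mouse 1 (adjusted p = 0.101) or 1 hr mouse 1 (0.683) or 2 (0.0718). The repeated call was lost without 0 hr mouse 1 (0.112) or 2 (0.215), 1 hr mouse 1 (0.499) or 2 (0.0964), or 4 hr mouse 1 (0.0516). Of the LH markers, Ttr fell after acute cocaine (1 of 2 choroid plexus genes tested, log2FC -1.35 at 2 hr, adjusted p = 0.000127), where the choroid plexus sum was 241 and 385 CPM at 0 hr and 198 and 217 CPM at 1 hr. In the same acute mice the LH neuron sum was 13984 and 15280 CPM at 0 hr and 11091 and 11921 CPM at 1 hr. None of its 3 markers was called there (median 1 hr log2FC -0.25). The neuropeptide gene Gal fell after repeated cocaine (1 of 3 LH neuron markers, -0.83 at 2 hr, adjusted p = 0.0479), where the LH neuron sum was 13298 and 14054 CPM at 0 hr and 11971 and 15473 CPM at 1 hr. The part of these markers was not tested. After challenge the single abstinent mouse read 21.1 CPM and the 1 hr mice 31.3 and 65.7 CPM, which did not pass (log2FC 1.19 ± 0.32, adjusted p = 0.0589). These 1 hr mice were in different runs, and the abstinent mouse was sequenced in both. The value passed without the lower 1 hr mouse, mouse 2 (log2FC 1.62, adjusted p = 0.000528), which leaves 1 mouse against 1, with the spread taken from other groups. It also passed without repeated 2 hr mouse 1 (0.0424) or 2 (0.0406), challenge 4 hr mouse 1 (0.00671) or 2 (0.0419), or challenge 2 hr mouse 1 (0.0280).

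**Figure D2:**
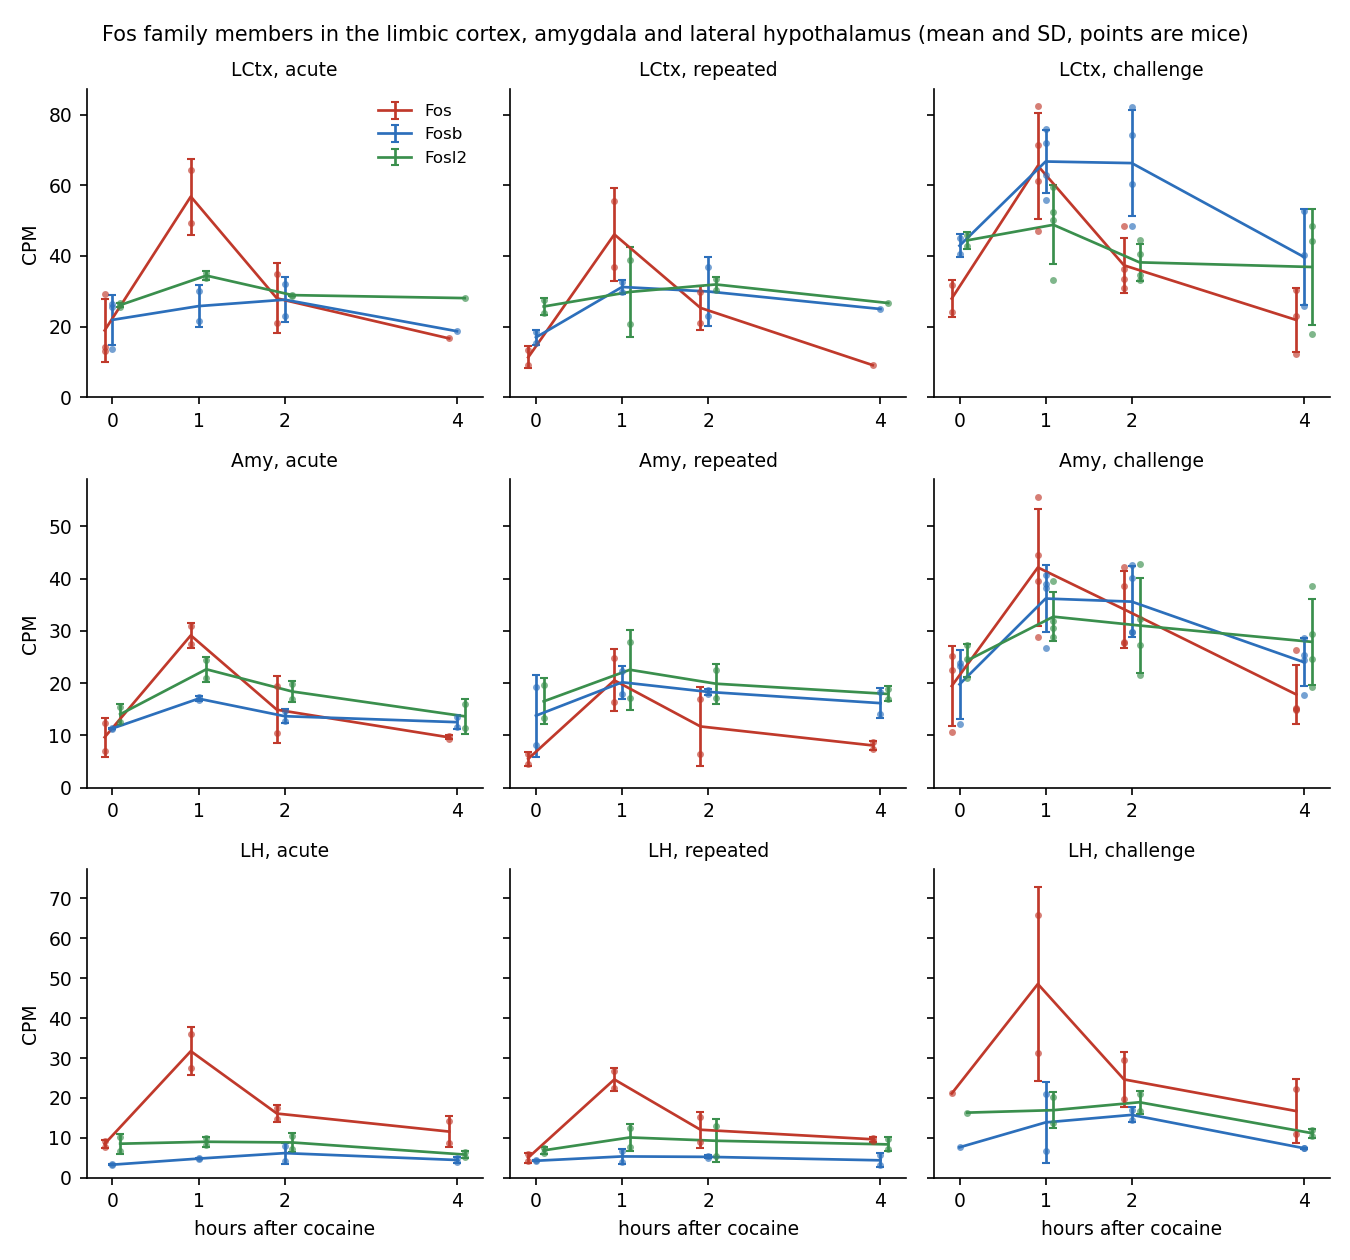
CPM of Fos, Fosb and Fosl2 in each mouse (points) at 0, 1, 2 and 4 hr after cocaine in the LCtx, Amy and LH, with lines through the group means and SD bars. The mean of Fos is highest at 1 hr in every panel, and of the other members only Fosb in the Amy after challenge passed the test.

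Fosb, the source of ΔFosB, rose in the DS after every experience. In acute mice it read 14, 14.4, 26.1 and 26.4 CPM at 0 hr and 70.3, 81.0, 109 and 111 CPM at 1 hr. It stayed at 22.4, 63.3, 66.3 and 77.8 CPM at 2 hr and at 28.9, 33.3, 42.5 and 44.8 CPM at 4 hr. Only 1 of these 2 hr mice fell among the 0 hr values, and every 4 hr mouse was above them. How many of all genes separate in this way was not counted at 2 and 4 hr, here or for the other experiences. At 1 hr, 2.32%, 1.65% and 3.50% of all genes in the DS had every mouse above the 0 hr mice after acute, repeated and challenge cocaine. Tests of the 4 hr levels are given below. The 1 hr log2FC was 2.30 ± 0.27 (4.92-fold, adjusted p = 1.24e-08).

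In repeated mice DS Fosb read 5.50 to 8.98 CPM at 0 hr, 17.6 to 43.9 CPM at 1 hr, 14.6 to 29.1 CPM at 2 hr and 12.3 to 19.7 CPM at 4 hr, and every later mouse was above every 0 hr mouse (log2FC 2.09 ± 0.34 at 1 hr, adjusted p = 0.000338). The repeated mice came from a pair of cohorts, which were apart at 1 hr, at 17.6 and 25.8 CPM in one and 41.0 and 43.9 CPM in the other, and at 4 hr, at 12.3 and 12.6 against 18.7 and 19.7 CPM. At 0 hr the first read 8.15 and 8.98 CPM and the other 5.5 and 7.3 CPM, so that Fosb was higher at 1 hr within each cohort. After challenge it read 13.2, 18 and 19.8 CPM at 0 hr, 60.0, 64.3, 74.0 and 77.8 CPM at 1 hr and 53.1, 55.9, 65.9 and 120.2 CPM at 2 hr. At 4 hr it was at 32.7, 35.5, 42.1 and 65.4 CPM, still above all abstinent mice. Its largest difference was here at 2 hr (log2FC 2.14 ± 0.28, adjusted p = 8.73e-07) and not at 1 hr (2.03 ± 0.28), but the 1 and 2 hr mice overlapped.

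NAc Fosb rose after all 3 experiences. Acute mice read 15, 18.9, 21.1 and 25.5 CPM at 0 hr and 36.6, 42.8, 47.5 and 51.2 CPM at 1 hr (log2FC 1.14 ± 0.19, adjusted p = 0.000601). Repeated mice read 9.09 and 10.8 CPM at 0 hr and 27.5 and 37.9 CPM at 1 hr (log2FC 1.71 ± 0.31, adjusted p = 0.0254). Challenge mice read 19.2 and 24 CPM at 0 hr and 39.3, 41.7, 52.8 and 60.0 CPM at 1 hr (log2FC 1.22 ± 0.23, adjusted p = 0.00484), and those of the run with the 0 hr mice were the upper pair of the 1 hr values. No 1 hr mouse overlapped a 0 hr mouse. The repeated call was lost without 0 hr mouse 1 (adjusted p = 0.212) or 2 (0.0961) or 1 hr mouse 1 (0.719), and the challenge call without 1 hr mouse 3 (0.0587).

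Elsewhere Fosb was called only in the Amy after challenge, at 12.1, 23.2 and 23.9 CPM at 0 hr and 26.8, 38.3, 38.9 and 40.7 CPM at 1 hr (log2FC 0.92 ± 0.19, adjusted p = 0.0146). Within its runs these were 12.1 and 23.9 against 38.9 and 40.7 CPM, and 23.2 against 26.8 and 38.3 CPM. That call was lost without 0 hr mouse 3 (log2FC 0.63, adjusted p = 0.134) or 1 hr mouse 3 (0.0702). In the other 8 comparisons of the LCtx, Amy and LH its largest log2FC ran from 0.28 ± 0.49 to 1.03 ± 0.44. Fosb was least abundant in the LH, where acute mice read 3.2 and 3.38 CPM at 0 hr and 4.67 and 4.96 CPM at 1 hr. In the LCtx after challenge it was already at 40.6 and 45.2 CPM at 0 hr, with 55.9 to 76.0 CPM at 1 hr (log2FC 0.66 ± 0.22, adjusted p = 0.176).

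Fosl2 rose most in the DS. In acute mice it went from 16.3, 18.7, 20.8 and 21.7 CPM at 0 hr to 84.5, 117, 120.1 and 131 CPM at 1 hr, a log2FC of 2.6 ± 0.25 (6.04-fold, adjusted p = 6.38e-15). It was at 22.1, 35.5, 55.5 and 63.9 CPM at 2 hr and at 16.5, 19.2, 20.4 and 20.4 CPM at 4 hr, so that the 4 hr mice lay within the 0 hr range. In repeated mice it read 10.8 to 15.8 CPM at 0 hr, 27.6 to 62.9 CPM at 1 hr, 18 to 50.9 CPM at 2 hr and 12 to 16.7 CPM at 4 hr (log2FC 1.86 ± 0.28 at 1 hr, adjusted p = 1.18e-07). After challenge the abstinent mice were spread, at 10.4, 26.1 and 37.2 CPM, whereas the 1 hr mice were close together at 94.7, 95.5, 99.5 and 102 CPM (log2FC 1.99 ± 0.25, adjusted p = 5.49e-10). All calls of the 3 members over time in the DS held without each mouse in turn.

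NAc Fosl2 passed after acute cocaine, from 20.4, 24.8, 25.5 and 26.8 CPM at 0 hr to 45, 48.7, 58.6 and 58.7 CPM at 1 hr (log2FC 1.11 ± 0.18, adjusted p = 0.000539). The 1 hr mice were above the 0 hr mice after repeated cocaine and challenge too, at 36.9 and 56.3 CPM against 25.8 and 26.3 CPM, and at 48.1 to 64.8 CPM against 28.8 and 35.8 CPM. These log2FC, 0.83 ± 0.26 (adjusted p = 0.872) and 0.87 ± 0.21 (adjusted p = 0.138), did not pass over all genes. The challenge value passed without 4 hr mouse 1 (adjusted p = 0.00726) and with run as a term, as given above. In the LCtx, Amy and LH the largest Fosl2 log2FC ran from -0.55 ± 0.36 to 0.69 ± 0.28 and none of the 9 was called. No overlap between 0 and 1 hr mice was seen in 14 of 15 time courses for Fos, 11 of 15 for Fosb and 10 of 15 for Fosl2, where 0.00755% to 2.62% of all genes were called. With so few mice, such separation is common: of all genes tested, 1.65% (DS, repeated, 4 against 4 mice) to 35.3% (LH, challenge, 2 against 1) had all 1 hr mice above the 0 hr mice, and 15.4% to 20.6% where 2 mice stood against 2.

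Fosl1 was near the floor of detection, set at 3 counts. Of the 166 samples, 102 had no count, 52 had 1 to 3 and 12 had more, up to 13. In the DS libraries of the time course, the 11 mice at 0 hr had no count except for a single count in a challenge mouse. At 1 hr the acute mice had 1, 2, 2 and 3 counts, the repeated mice 0, 1, 1 and 3, and the challenge mice 4, 4, 6 and 8. The mean within-experience difference was 0.781 CPM, and an exact two-sided permutation test within experience, added after the values were seen, gave p = 2.92e-05 for the DS. The further DS libraries of the shared run were less clear: at 0 hr a challenge mouse had 3 counts and an acute mouse 1, at 1 hr the acute mice had 2 and 2, both repeated mice 0 and the challenge mice 3 and 4, and at 4 hr a challenge mouse had 5. In those libraries alone the difference was 0.624 CPM (exact permutation p = 0.167), and with runs summed it was 0.733 CPM (p = 8.75e-05). The same exact permutation test gave 0.112 CPM (p = 0.469) in the NAc, -0.0636 CPM (p = 0.733) in the LCtx, 0.0423 CPM (p = 0.371) in the Amy and 0.0735 CPM (p = 0.861) in the LH, and after adjustment over the 5 structures the DS value was 0.000146. In the LH the counts were 1 and 2 at 0 hr and 0 and 1 at 1 hr after acute cocaine, and 0 and 2 at 0 hr and 0 and 0 at 1 hr after repeated cocaine. In the LH after challenge the counts were 6 at 0 hr and 6 and 13 at 1 hr, the highest of the table. Counts this low, beside an overlapping neighbour, leave the identity of these reads uncertain.

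**Figure D3:**
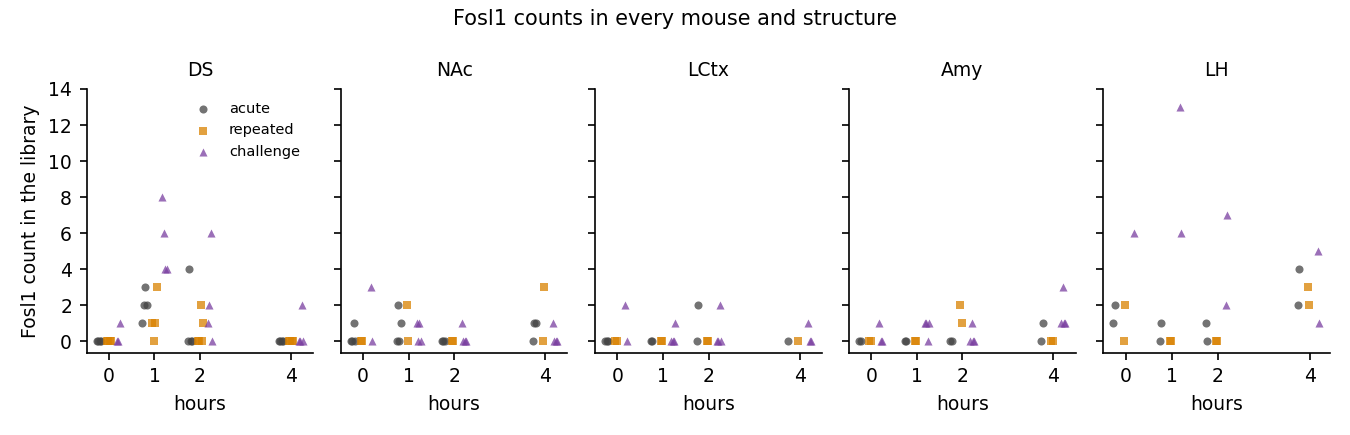
Fosl1 counts in the library used for each mouse and structure (points) by hours after cocaine, 1 panel per structure, coloured by experience, without the shared-run libraries. DS counts at 1 hr reach 8 where the DS libraries shown at 0 hr have 0 or 1, and the LH after challenge holds the highest count, 13.

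The fall from 1 to 2 hr was tested for each member. In the DS 0.782%, 0.147% and 0.108% of all genes were called between 2 and 1 hr after acute, repeated and challenge cocaine, and in the NAc 0.0617%, 0.00771% and 0.00771%. Of 18 member tests, 5 were called, and all 5 fell. The log2 difference of DS Fos was -2.78 ± 0.37 (adjusted p = 3.89e-07), -2.56 ± 0.33 (3.49e-07) and -2.25 ± 0.31 (4.34e-06), and that of NAc Fos after acute cocaine -1.46 ± 0.28 (adjusted p = 0.00878). DS Fosl2 after acute cocaine stood at -1.36 ± 0.21 (adjusted p = 1.51e-05). The NAc call was lost without any of the 2 hr mice 1 (0.0906), 2 (0.187) or 3 (0.0554), or without 1 hr mouse 4 (0.0618). NAc Fosl2 after acute cocaine stood at -0.88 (adjusted p = 0.0659) and passed without any of 5 mice of the other experiences, namely repeated 1 hr mice 1 (0.0425) and 2 (0.0415), challenge 2 hr mouse 2 (0.0462) and challenge 4 hr mice 1 (0.0118) and 4 (0.0346). It passed with run and cohort as terms too (adjusted p = 0.0157). In the shared run alone, with 2 mice per group, the Fosl2 fall did not pass (-1.04, adjusted p = 0.208).

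DS Fosb was called at 2 against 1 hr in no experience: its log2 differences were -0.71 ± 0.22 (adjusted p = 0.138), -0.48 ± 0.26 (0.952) and 0.12 ± 0.22 (1.00), with 95% intervals of -1.15 to -0.28, -1.0 to 0.04 and -0.32 to 0.55. By mean CPM, -13.3%, 5.52% and -0.767% of the DS Fos rise above 0 hr was left at 2 hr, where negative values lie below the 0 hr mean. For Fosb 51.3%, 62.1% and 109% was left, and for Fosl2 26.5%, 80.0% and 70.1%. In the shared run, with 2 mice per group, 1.65%, -5.57% and 3.04% was left for Fos, 45.3%, 39.7% and 97.0% for Fosb and 37.8%, 35.5% and 44.5% for Fosl2, so that the repeated values of Fosb and Fosl2 and the challenge value of Fosl2 were lower there by over 1.5 times. Without any 1 mouse the 2 hr shares in the DS ran from -20.4% to 10.3% over the experiences for Fos, 41.9% to 122% for Fosb and 19.5% to 98.1% for Fosl2. At 4 hr 23.6%, 33.9% and 51.8% of the Fosb rise was left, against -0.283%, 5.70% and 9.15% of the Fosl2 rise. Without any 1 mouse these Fosl2 values ran from -1.38% to 0.638%, 3.18% to 8.91% and -0.551% to 16.3%, so that the sign of the acute and challenge values turns. In the shared run the 4 hr values were 21%, 17.9% and 59.2% for Fosb and 6.50%, 12.3% and -5.86% for Fosl2, so that the repeated values of both differed by over 1.5 times and the acute and challenge values of Fosl2 had the other sign. In the NAc, where the 2 hr mean of Fos was also below its 0 hr mean after acute cocaine (-12.9% left), 16.6% of its rise was left after repeated cocaine and 52.3% after challenge. Without any 1 mouse these were -27.5% to 6.12%, 7.06% to 24.4% and 46.6% to 57.3%, so that the sign of the acute value turns.

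At 4 hr against 0 hr, 0.921%, 0% and 0.0155% of all genes were called in the DS and 0.0386%, 0.00771% and 0% in the NAc (edgeR; 600 genes had an unadjusted p under 0.05 in the DS after repeated cocaine, and 1283 in the NAc after challenge). Of 18 member tests 1 was called, DS Fosb after challenge (log2 difference 1.42 ± 0.29, adjusted p = 0.0379). This call did not hold without 0 hr mouse 1 (adjusted p = 0.0758), 2 (0.160) or 3 (0.433), or without 4 hr mouse 2 (1.12, adjusted p = 1.00). DS Fosb was 0.95 ± 0.29 higher at 4 hr after acute cocaine (adjusted p = 0.0920) and 1.09 ± 0.38 after repeated cocaine (adjusted p = 0.998), which did not pass. The acute value passed without 2 hr mouse 1 (adjusted p = 0.0449). DS Fos at 4 hr after acute cocaine stood at -1.35 ± 0.49 (adjusted p = 0.201).

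Ratios of members within a library need no scaling. The log2 ratio of Fosb to Fos in the DS was 1.17 ± 0.30 (SD) in acute mice at 1 hr and 3.12 ± 0.50 at 2 hr, and it moved from -0.82 ± 0.62 to 1.38 ± 0.72 after repeated cocaine and from 0.07 ± 0.42 to 2.29 ± 0.74 after challenge. Those of Fosl2 to Fos moved by 1.3, 2.41 and 1.82. In all 6 cases the 1 and 2 hr mice did not overlap. The exact two-sided permutation p was 0.0286 with 4 against 4 mice and 0.00794 with 4 against 5, the smallest these designs allow, and the adjusted p over 18 tests was 0.0643, so that none passed 0.05. The Fosl2 to Fosb ratio moved less, by -0.64, 0.21 and -0.40 (exact permutation p = 0.0286, 0.476 and 0.0286). Its 1 and 2 hr mice did not overlap either after acute cocaine and challenge. The lowest 1 hr value was 0.073 against a highest 2 hr value of -0.021 in acute mice, and 0.295 against 0.282 in challenge mice. Both had the smallest p possible and an adjusted p of 0.0643. No ratio in the NAc had a p below 0.171, and with 2 mice per group after repeated cocaine it could not go below 0.333.

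**Figure D4:**
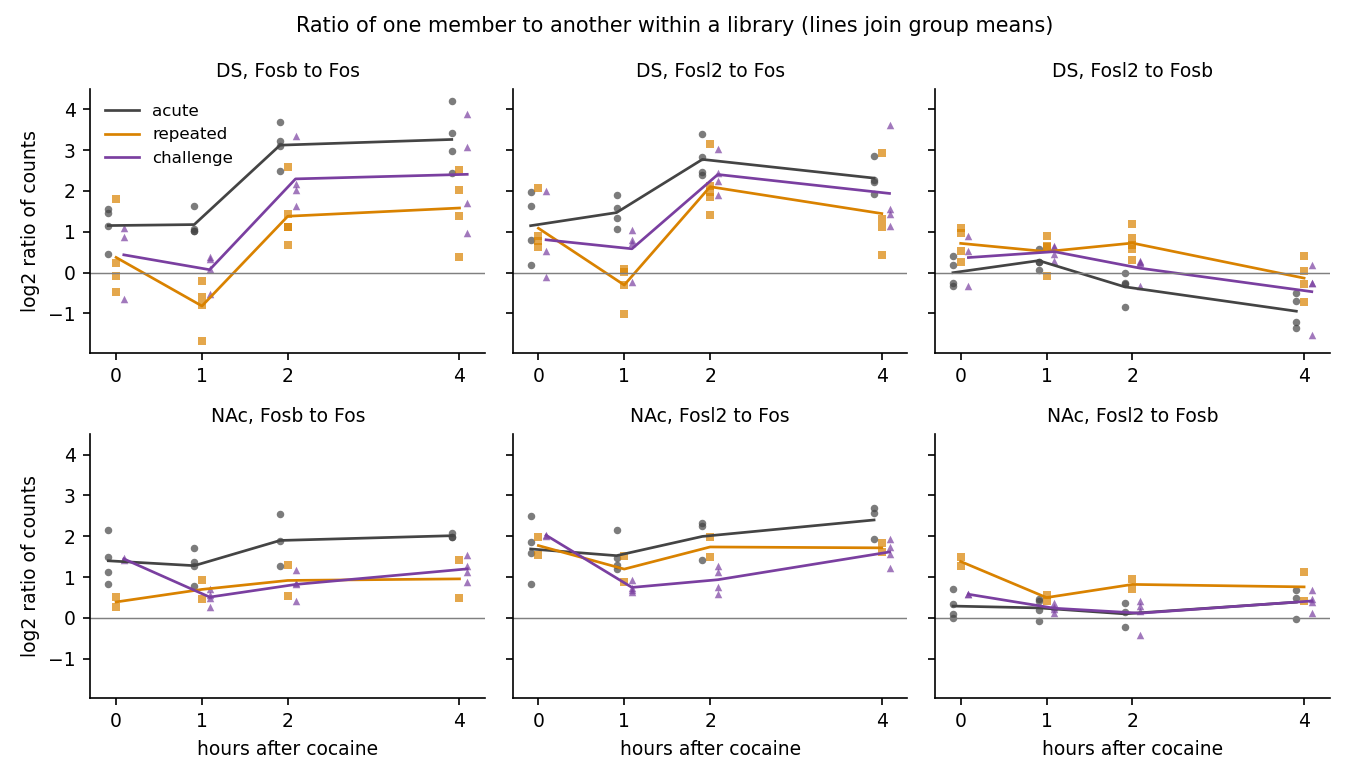
Log2 ratio of the counts of 2 members within a library (points, with 0.5 added to each count) by hours after cocaine in the DS and NAc, coloured by experience. Fosb to Fos and Fosl2 to Fos step up between 1 and 2 hr in the DS with no overlap, and the NAc steps are smaller, at 0.62 or less.

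Whether experience changed the response was asked in the DS, where each experience has 3 to 5 mice per time. No cohort of mice was shared between experiences, so that experience and cohort cannot be told apart, here or in the levels below. The 1 hr induction of Fos after repeated cocaine less that after acute cocaine was 0.95 ± 0.55 (95% interval -0.13 to 2.03, adjusted p = 0.996). The same difference was -0.21 ± 0.46 (-1.11 to 0.70) for Fosb and -0.73 ± 0.39 (-1.49 to 0.02) for Fosl2. After challenge it was 0.14 ± 0.52 (-0.87 to 1.15) for Fos, -0.27 ± 0.40 (-1.05 to 0.51) for Fosb and -0.60 ± 0.36 (-1.30 to 0.09) for Fosl2. In edgeR 0 of these 6 were called, 0 had an unadjusted p under 0.05 and 0 were called by DESeq2. Across all genes 0% were called in both, with 649 and 676 genes at an unadjusted p under 0.05. These intervals are wide enough to hold a 2-fold larger induction of Fos and a 2-fold smaller induction of Fosb and Fosl2. In the shared run alone, the repeated differences of Fos and Fosl2 had the other sign (-0.36 and 0.15).

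Levels before and after the dose were compared within the shared run, with 2 mice per group. At 0 hr Fosb read 8.34 and 11.5 CPM in cocaine-naive mice, 12.7 and 15.5 CPM in repeated mice and 21.6 and 23.9 CPM in abstinent mice. The 3 pairs did not overlap, as in 12.9% of all genes tested in some order, and the abstinent against naive difference of 1.2 ± 0.45 did not pass (95% interval 0.31 to 2.08, adjusted p = 0.153). With all runs summed it was -0.0035, and the repeated against naive difference was then -1.01. In the time-course runs, which differ between these experiences, the 0 hr means were 20.2 CPM in naive and 7.48 CPM in repeated mice, so that the direction depends on the run. Fos at 0 hr read 7.94 and 12.5 CPM in naive, 4.02 and 8.44 CPM in repeated and 2.62 and 10.004 CPM in abstinent mice, and Fosl2 read 21.2 and 21.3, 12.1 and 14.8, and 18.5 and 34.7 CPM. In edgeR 0 of 12 member tests at 0 hr were called, 1 had an unadjusted p under 0.05, and DESeq2 called 0 of the 7 for which it gave an adjusted p. Of all genes, 1.86% and 3.48% were called in the DS after repeated cocaine and abstinence, and after repeated cocaine 0.0465% were called for the Amy and 1.74% for the LH.

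At 1 hr in the shared run, a comparison added after the values were seen, Fos read 75.8 and 103 CPM in acute, 29.5 and 56.2 CPM in repeated and 37.7 and 90.6 CPM in challenge mice. Fosb read 61.5 and 74.8, 48.5 and 75.6, and 92.4 and 108 CPM, and Fosl2 105 and 128, 73.4 and 90.3, and 88.3 and 123 CPM. Fos was lower in both repeated mice than in the acute mice, by 1.05 ± 0.37 on the log2 scale (adjusted p = 0.162), and Fosb was higher in both challenge mice by 0.55 ± 0.31 (adjusted p = 0.418). With runs summed the challenge difference of Fosb turned to -0.30 and that of Fos to 0.38, and Fosb (-1.33, adjusted p = 0.000465) and Fosl2 (-1.22, adjusted p = 8.81e-05) were called lower after repeated cocaine, in a comparison that mixes runs. In the time-course runs, which differ between these experiences, the 1 hr mean of Fosb was 92.9 CPM in acute and 69.0 CPM in challenge mice. The Fosb level of the shared run was a median 0.757 times that of these runs in acute mice and 1.18 times in challenge mice, so that the direction depends on the run. In edgeR, 0 of the 6 tests passed in the shared run, 1 had an unadjusted p under 0.05, and DESeq2 called 0 of 4, where 1.53% and 2.94% of all genes were called after repeated cocaine and challenge.

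The 1 hr induction differed between structures for Fosb and Fosl2. In a model of the 5 structures per experience, 0.263%, 0.0607% and 0.0511% of all genes were called after acute, repeated and challenge cocaine, and 0.165%, 0.0379% and 0.0219% for the DS less the NAc. Of 18 member tests 4 were called. The LH after challenge had a single 0 hr mouse, so that the challenge tests over the 5 structures rest in part on 1 animal. After acute cocaine the DS induction exceeded that of the NAc, LCtx, Amy and LH by 1.49, 2.22, 1.91 and 2.47 for Fosl2 (adjusted p = 8.43e-08) and by 1.16, 2.11, 1.71 and 1.77 for Fosb (adjusted p = 0.000519). The DS less NAc difference passed for Fosl2 (1.49 ± 0.19, adjusted p = 6.69e-05) and not for Fosb (1.16 ± 0.27, adjusted p = 0.0609). After challenge Fosl2 differed too (1.13, 1.84, 1.56 and 1.94, adjusted p = 0.000758).

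Fos showed no such difference that passed, with 0.96, 0.59, 0.53 and 0.24 after acute cocaine (adjusted p = 0.910), although its repeated DS less NAc difference was 1.68 ± 0.42 (adjusted p = 0.297). Structures of a mouse share that animal. With the mouse as a block 8 tests passed, and Fosb gained the DS less NAc difference after acute cocaine (1.12, adjusted p = 0.00128), the repeated difference among structures (0.00566) and that after challenge (0.0456), while Fosl2 gained the DS less NAc difference after challenge (1.28, adjusted p = 0.00448). Without 1 mouse, numbered as in the DS, 3 further tests passed: the acute DS less NAc difference of Fosb without 0 hr mouse 1 (adjusted p = 0.0373), that of Fosl2 among structures after repeated cocaine without 1 hr mouse 2 (0.0280) and that of Fosb after challenge without 1 hr mouse 3 (0.0365).

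**Figure D5:**
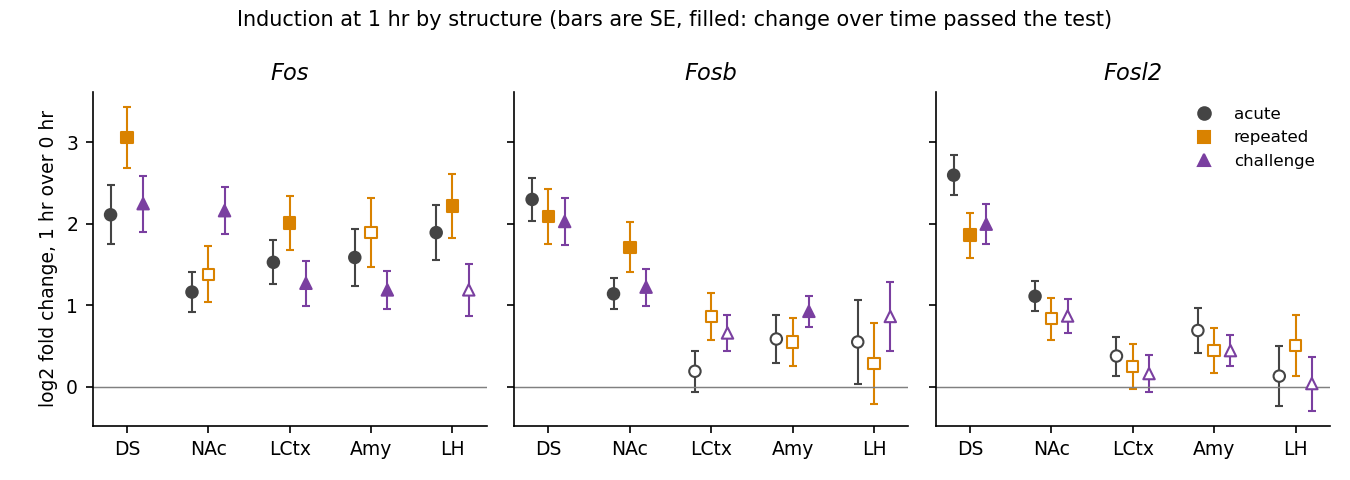
Log2FC at 1 hr against 0 hr (points, bars are SE) of Fos, Fosb and Fosl2 in the 5 structures, coloured by experience, filled where the change over time passed the test. Fosb and Fosl2 are highest in the DS after acute cocaine (2.30 and 2.6), while Fos is above 1 in all 5 structures.

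The order of the 1 hr levels over structures is given for each experience, and no test compared the orders. After acute cocaine the order for Fosl2 was DS (mean 113 CPM), NAc (52.7), LCtx (34.5), Amy (22.6) and LH (9.03), and no neighbours in that order overlapped, as in 2.73% of all genes tested in some order. Fosb ran in the same order, from 92.9 through 44.5, 25.8 and 17.0 to 4.82 CPM, also with no overlap. For Fos the order was LCtx (56.8 CPM), DS (41.1), LH (31.7), Amy (29.1) and NAc (18.5), and only the Amy and NAc did not overlap. At 0 hr the DS was not the highest for any member: LCtx means led, at 18.9 CPM for Fos, 21.9 for Fosb and 26.1 for Fosl2, and overlapped the next structure. The DS, NAc and LCtx of acute mice were each sequenced in a run of their own, and the Amy and LH together. After repeated cocaine and challenge, too, the DS libraries came from another run than those of the other structures. All these orders are therefore descriptions. After repeated cocaine the NAc and DS overlapped for Fosb and Fosl2, and the NAc mean was first (32.7 against 32.1 CPM, and 46.6 against 44.9 CPM). The DS was first for Fos (53.6 CPM) and overlapped the LCtx. This order depends on the run. In the shared run the repeated DS mice read 48.5 and 75.6 CPM for Fosb and 73.4 and 90.3 CPM for Fosl2. These lie above both NAc mice (27.5 and 37.9 CPM, and 36.9 and 56.3 CPM). The Fos mean of these DS mice was 42.9 CPM, below that of the LCtx (46.1 CPM). After challenge the DS mean was first for all 3, at 69.3 CPM for Fos and 69.0 for Fosb, both overlapping the LCtx, and at 98.0 for Fosl2, apart from the NAc (56.8).

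Among other genes of the pathway, listed with results of these data known, partners that pair with Fos proteins were 10 genes of which 8 were tested in the DS. After acute cocaine, where 2.62% of all genes were called, 2 of the 8 rose there, Junb (1 hr log2FC 2.21, adjusted p = 8.59e-23) and Jun (0.97, adjusted p = 8.33e-07), and the list's median 1 hr log2FC was -0.05 beside -0.01 over all genes. Junb was called in 14 of 15 comparisons, all but the LH after challenge, at 0.70 to 2.30. In the DS after challenge, where 0.673% of all genes were called, 3 of the 8 rose, Junb, Jun (0.80) and Atf3. The list's median 1 hr log2FC was 0.22 there. Atf3, a stress-induced bZIP factor singled out here after its values were seen, was called in the DS and NAc after challenge (2.9 and 4.16). Of 18 tested kinases, cofactors and transcription factors that act on the Fos promoter, Srf alone was called in any comparison, in the DS after acute cocaine (0.41 at 2 hr, adjusted p = 0.0428). Of 9 genes reported as striatal targets of ΔFosB or AP-1, Camk2a, a synaptic kinase, was the only call (0.46 at 1 hr, adjusted p = 0.0281), in the same comparison. Without the 0 hr mouse 1 named above, Junb and Jun were still called there and Srf (adjusted p = 0.101) and Camk2a (0.444) were not. Beside the share of all genes called there, a single call in a list is no result about the list.

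Over the 45 mean differences from 0 hr, the patterns most like Fos among 12236 genes were those of Junb (Pearson r = 0.870), Arc (0.815), which acts at synapses, and the nuclear receptor gene Nr4a1 (0.799). Those most like Fosb were Fosl2 (0.845), the nuclear receptor gene Nr4a3 (0.837) and Mest (0.817), and those most like Fosl2 were Nr4a3 (0.924), Midn (0.875) and the mitochondrial carrier gene Slc25a25 (0.861). Between members r was 0.367 for Fos and Fosb and 0.502 for Fos and Fosl2. The 45 points share libraries and, within an experience, the 0 hr mice, so that these values describe likeness only.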

How the data were processed

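The deposited values are raw counts for each gene, produced by the authors with STAR and HTSeq on GRCm38 (versions not given in the sources used here) from 3′-RNA-seq libraries with molecular identifiers of 8 bases. Their methods name a depth above which a share of the reads was kept, and some totals lie above that depth. Whether these libraries were subsampled cannot be told. Every column was mapped to a sample (0 not used). For mice with several libraries in a structure, the time tests used 1 run, and the 2 runs of the single LH abstinent mouse were summed. Replicates were separate mice per the labels. The 4 hr LCtx groups of 1 mouse, acute and repeated, were left out of the fit.

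Counts were fitted with edgeR 4.0.16 in R 4.3.3 (filterByExpr, TMM, quasi-likelihood F test, 1 model per structure, or per experience for differences between structures), and p-values were adjusted by Benjamini-Hochberg over all genes tested. SE is the log2 difference divided by the square root of F, and 95% intervals use the normal quantile. DESeq2 1.42.0 was an alternative, as were other scalings, filters, runs and blocks, and each mouse left out in turn. Log ratios added 0.5 to each count and used exact permutation tests in scipy 1.17.1. Scripts were tested on simulated data. A floor of 3 counts covers counting error only.

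Named genes were the members, list genes called in the DS after acute cocaine, and the 3 genes most like each tested member. Atf3, and marker genes called in the LCtx and LH, were named outside this rule, after their values were seen. The members and lists were chosen with earlier results of these data known. Same-numbered mice did not deviate together (median r of 0.000305 in the DS, 253 pairs), so the numbers were not taken to pair mice. Libraries of 1 mouse from different structures had a median r of 0.0385 (245 pairs).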

Additional observations from a re-analysis of the deposited data

Results flagged for a closer look

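In 2 of the 63 combinations of a member and a group of 4 or 5 mice, 1 mouse stood apart by Dixon's test, and chance gives about 1 in 20. Fos in the Amy 4 hr after challenge read 26.3 CPM in 1 mouse against 14.8 to 15.2 CPM in the other 3. Fos in the DS 2 hr after challenge read 21.2 CPM in 1 mouse against 11.7 to 13 CPM in the other 3.

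The 1 hr induction differed between structures in a test of the difference itself. Over the 5 structures this held for Fosb after acute cocaine (adjusted p = 0.000519), for Fosl2 after acute cocaine (adjusted p = 8.43e-08) and for Fosl2 after challenge (adjusted p = 0.000758), and for the DS less the NAc it held for Fosl2 after acute cocaine (adjusted p = 6.69e-05), all by edgeR. Each induction is taken against the 0 hr mice of its own structure, and the acute DS and NAc libraries came from different runs. The LH after challenge had a single 0 hr mouse.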

How the results depend on the processing

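The number of members called over time was 23 of 45, and 20 to 25 without each mouse in turn. DESeq2 called 16 of the 42 for which it gave an adjusted p, with 6 for Fos in place of 12, and the call of NAc Fos after repeated cocaine was gained. Without a filter 29 passed, and with the replicate block 25, which gained Fos in the Amy after repeated cocaine (adjusted p = 0.0382) and in the LH after challenge (0.00209), where the 0 hr group is a single mouse in any fit. A separate model per experience lost NAc Fosb after repeated cocaine (adjusted p = 0.0769) and LCtx Fos after acute cocaine (0.128). Calls at 2 against 1 hr numbered 5, with 8 without a filter and 4 to 6 without each mouse. Calls at 4 against 0 hr numbered 1, with 3 without a filter, 0 with library totals alone or runs summed, and 0 to 2 without each mouse. Structure calls numbered 4, with 13 without a filter, 8 with the mouse block and 4 to 5 without each mouse. Calls of the 0 hr level numbered 0, with 1 both without a filter and with the replicate block, and of the 1 hr level 0, with 2 when runs were summed. Leaving out each mouse kept both at 0, as it did for the differences in induction. For the log ratios a count of 0 says nothing of stability, since those of Fosb or Fosl2 to Fos in the DS already had the smallest p these designs allow. The same holds there for Fosl2 to Fosb after acute cocaine and challenge.

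With runs summed the sign turned for DS Fosl2 at 4 against 0 hr after acute cocaine (0.062), for 0 hr DS Fosb after repeated cocaine (-1.01) and abstinence (-0.0035), for 0 hr DS Fos in abstinence (0.29), and for 1 hr DS Fos and Fosb after challenge (0.38 and -0.30). In the shared run alone it turned at 4 against 0 hr for DS Fosl2 after acute cocaine (0.37) and challenge (-0.27) and for DS Fos after challenge (0.56), at 2 against 1 hr for DS Fosb after challenge (-0.013), and for the repeated less acute induction of Fos (-0.36) and Fosl2 (0.15). With the replicate block it turned for 1 hr DS Fosl2 after challenge (0.49), but in the shared run the acute and challenge mice compared at 0 and 1 hr have no replicate number in common, so that the block pairs none of them, in this value or in the 0 hr call it gave. The causes were not tested, and none of these values had been called.

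Leaving out single mice turned the sign of 23 differences that were not called. At 4 against 0 hr these were DS Fos after repeated cocaine (-0.44 to 0.19) and challenge (-0.94 to 0.23), NAc Fos after repeated cocaine (-0.29 to 0.18), NAc Fosb after acute cocaine (-0.022 to 0.25), DS Fosl2 after acute cocaine (-0.10 to 0.061) and challenge (-0.071 to 0.74) and NAc Fosl2 after challenge (-0.084 to 0.35). Over time they were Fosb in the LH after repeated cocaine (-0.13 to 0.62) and Fosl2 in the LCtx after challenge (-0.56 to 0.046), and at 2 against 1 hr DS Fosb after challenge (-0.24 to 0.24). For 0 hr levels they were Fosb (-0.42 to 0.79) and Fosl2 (-0.024 to 0.51) in the Amy, Fosl2 in the LH (-0.53 to 0.085) and DS Fosl2 in abstinence (-0.19 to 0.71). For 1 hr levels in the DS they were Fosb after repeated cocaine (-0.50 to 0.16), and Fos (-1.24 to 0.022) and Fosl2 (-0.40 to 0.082) after challenge. The remaining ones were the challenge less acute induction of Fos (-0.47 to 0.98), the DS less NAc induction of Fosb after repeated cocaine (-0.012 to 0.57) and of Fos after challenge (-0.34 to 0.92), and the NAc log2 ratios of Fosb to Fos after repeated cocaine (-0.15 to 0.59) and of Fosl2 to Fosb after acute cocaine (-0.28 to 0.016) and challenge (-0.22 to 0.057).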
